A study of Homo sapiens with 4 samples.

Results

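The PGC-1 coactivators and the factors through which they act on mitochondria were followed after knockdown of the NAD-dependent deacetylase SIRT1 in PANC-1, an established line of human pancreatic cancer cells. The 10 genes were chosen by symbol among the 16878 genes of each table and all 10 were found: the coactivators PPARGC1A, PPARGC1B and PPRC1, the nuclear factors ESRRA, NRF1 and GABPA, and the mitochondrial transcription factors TFAM, TFB1M and TFB2M with the polymerase POLRMT. RNA-seq had been done on 4 libraries, 2 labelled Control and 2 labelled siSIRT1, with RNA taken 48 h after transfection. The siSIRT1 cells received a single small interfering RNA, picked by the study as the most efficient against SIRT1, so that effects of SIRT1 loss and effects particular to this oligonucleotide cannot be told apart. What the Control transfection contained is not described in the sources used here. The sense strand of the siRNA was read from the supplementary tables and is shown because every comparison rests on it.
siSIRT1: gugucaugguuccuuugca

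Levels were deposited as FPKM, a measure of fragments that divides by the length of the transcript and by the mapped total, which corrects for transcript length and library size. The labels do not say whether the libraries of a group came from separate cultures, so all p-values measure only the spread between these libraries, which may be technical. The FPKM values summed to 397094 to 426279 per library, and 12123 to 12171 genes reached 1 FPKM. From the steps between low FPKM values, the depth was estimated at 8715000 to 9160000 reads per library. KRT8 ranged from 2164 to 2745 FPKM, KRT18 from 1484 to 1914 and KRT19 from 313 to 394, as in an epithelial line, while KRT7 was at 2.89 to 4.04. The mesenchymal gene VIM was at 2198 and 2049 FPKM in the Control and 1503 and 1427 in the siSIRT1 libraries, and its part in the results below was not tested. The acinar markers PRSS1, CPA1 and CELA3A did not exceed 0.15 FPKM in any library, PECAM1 stood at 0.59 to 0.75 and PTPRC at 0.97 to 1.29.

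PGC-1 coactivators do not bind DNA themselves but are recruited by nuclear receptors and other transcription factors, and PGC-1α, the product of PPARGC1A, is a classical substrate that SIRT1 deacetylates. They raise the expression of nuclear genes for mitochondrial proteins through the estrogen-related receptor ERRα (ESRRA), nuclear respiratory factor 1 (NRF1) and the ETS-family factor GABP, whose DNA-binding subunit is GABPA. The nuclear factors in turn control TFAM, TFB1M and TFB2M, which are imported into the organelle where POLRMT transcribes the mitochondrial genome.

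SIRT1 itself stood at 10.46 and 10.25 FPKM in the Control group and at 1.80 and 2.05 FPKM in the siSIRT1 group. Both siSIRT1 libraries were far below both Control libraries, with 18.6% of the Control mean left. The log2 fold change was -1.96 (SE 0.11, limma adjusted p = 1.33e-05). In bulk RNA, less RNA per cell and fewer cells that express a gene cannot be told apart, here or for the 10 genes. Here and below, a log2 fold change is siSIRT1 minus Control on the log2(FPKM + 1) scale, which understates changes of low genes. The adjusted p comes from a limma fit over 12191 genes, those whose mean reached 1 FPKM, with Benjamini-Hochberg adjustment over all of them and a threshold of 0.05. Fits that left out a library kept only 1 library in its group, so their residual spread came from the other group alone. Calls kept or lost in them are descriptions, and a lost call need not depend on the library left out.

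Of the 10 genes, 9 passed the filter on low values, and 4 of these were higher in siSIRT1: ESRRA, TFB2M, PPARGC1B and PPRC1. None of the 9 was lower, and 5 did not pass the test. The 4 of 9 are 44.4%, beside 37.1% of all tested genes called in either direction, 24.0% called higher and 13.1% called lower, and a share over so few genes is given as a description. The median log2 fold change was 0.08 over the 9 genes and 0.07 over all tested genes. In 8 of the 9 tested genes the groups were without overlap, which was true of 69.0% of all tested genes. Of all calls, 64.8% were higher in siSIRT1 on the deposited scale, and 50.2% were higher when libraries were rescaled by the median of ratios, a scaling that brings the median gene to no change. The study applied thresholds of a fold above 1.2 and a p under 0.001 to its RNA-seq. With the unadjusted limma p, 18.1% of all tested genes passed them, and ESRRA was the 1 of the 10 genes that did. The test behind the study's own p is not described, and the study reported more genes past these thresholds. Which of the 10 genes were in its list is therefore not known here.

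**Figure D1:**
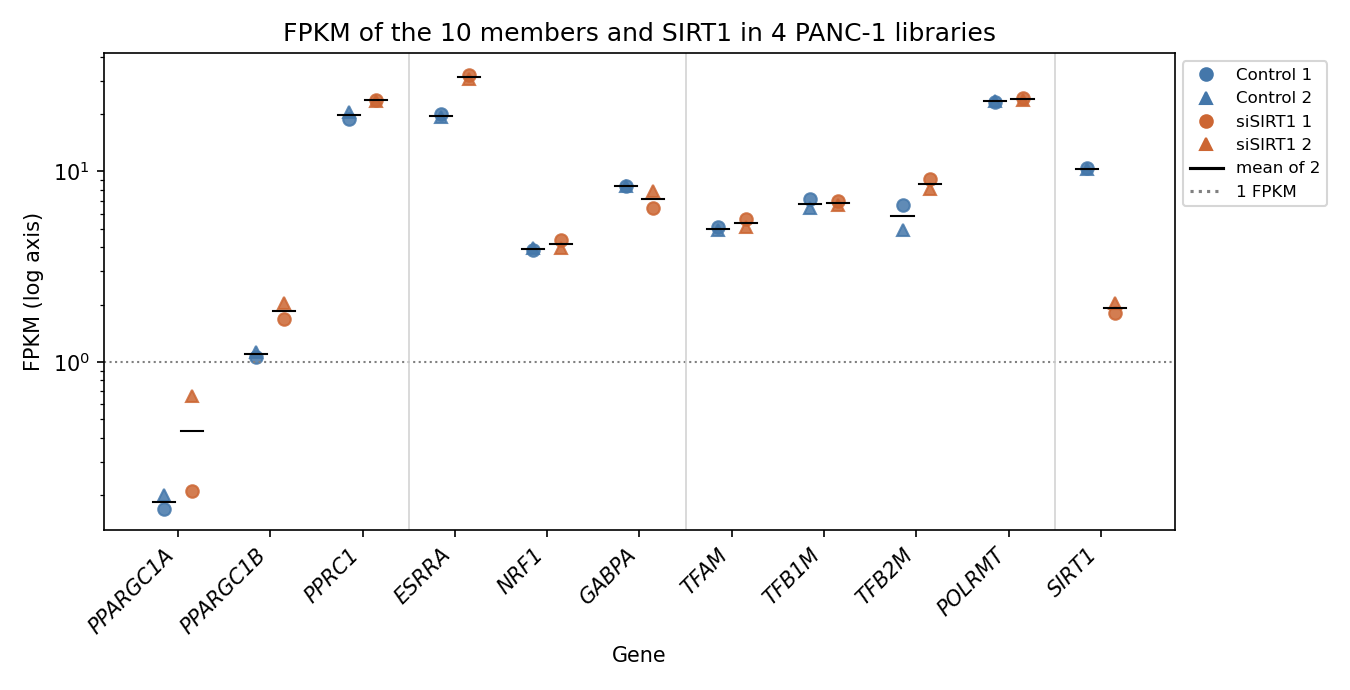
FPKM (log axis) of the 10 genes and SIRT1 in each of the 4 libraries, with symbols for replicates, colours for groups, a bar at the mean of 2 libraries and a dotted line at 1 FPKM. The siSIRT1 symbols of ESRRA at 32.19 and 30.50 FPKM lie well above the Control symbols at 19.96 and 19.19, whereas those of TFB1M and POLRMT lie beside the Control symbols.

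The promoters are shown here so that the letters near each start site can be read beside the levels. RefSeq promoter windows on build GRCh38.p14, with 250 bases before and 50 bases after the annotated start, were matched for 9 of the 10 genes, and PPARGC1A had 2 of the 10 windows. Both strands were searched for CCGGAAG, a core that ETS factors such as GABP recognise, for TCAAGGTCA, an ERR element, for TGACGTCA, the CREB element, and for the palindrome of NRF1, which is GCGCA followed by its reverse complement TGCGC. A looser form of the last, in which the fifth base was free, contains the palindrome. The 150 bases before the start are printed for ESRRA, the gene with the smallest adjusted p of the 10, and for the 4 genes of mitochondrial transcription, of which TFB2M rose, in the direction of the gene, with matched letters in capitals, which read as the reverse complement where the match was on the other strand (the ETS core then reads CTTCCGG).
ESRRA: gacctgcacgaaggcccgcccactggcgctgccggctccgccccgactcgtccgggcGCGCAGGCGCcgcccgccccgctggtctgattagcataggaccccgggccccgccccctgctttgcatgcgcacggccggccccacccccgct
TFAM: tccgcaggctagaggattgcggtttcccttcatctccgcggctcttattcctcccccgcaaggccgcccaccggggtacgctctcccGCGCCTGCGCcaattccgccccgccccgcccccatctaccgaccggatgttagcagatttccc
TFB1M: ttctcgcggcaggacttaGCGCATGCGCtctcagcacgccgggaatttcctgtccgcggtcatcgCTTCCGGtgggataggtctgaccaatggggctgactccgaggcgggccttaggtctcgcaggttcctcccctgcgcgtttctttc
TFB2M: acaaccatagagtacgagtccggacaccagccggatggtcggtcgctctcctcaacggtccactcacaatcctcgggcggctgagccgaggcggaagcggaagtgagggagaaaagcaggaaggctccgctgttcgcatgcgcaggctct
POLRMT: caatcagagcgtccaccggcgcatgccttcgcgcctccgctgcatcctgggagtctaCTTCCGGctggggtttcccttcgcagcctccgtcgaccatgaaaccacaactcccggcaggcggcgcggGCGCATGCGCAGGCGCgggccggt

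These stretches lie at chr11:64305374-64305523 on the plus strand for ESRRA and at chr10:58385260-58385409 on the plus strand for TFAM. On the minus strand, TFB1M is at chr6:155314485-155314634, TFB2M at chr1:246566262-246566411 and POLRMT at chr19:633538-633687. The full NRF1 palindrome was found in TFB1M, starting 132 bases before the start, and in POLRMT, starting 24 bases before it. It was present in 1.239% of the 35116 windows of the table. With the fifth base free, ESRRA had a match beginning 93 bases and TFAM 63 bases before the start, and POLRMT had a further one overlapping its palindrome, while 5.784% of all windows held this form. The ETS core stood 93 bases before the start in POLRMT, 85 in TFB1M and 66 in GABPA, and in 10.26% of all windows. No window of the 10 genes contained the ERR element, found in 0.3531% of all windows, or the CREB element, found in 1.848%. PPARGC1A, PPARGC1B, PPRC1 and TFB2M contained no exact match of the searched letters, which says nothing about binding of any factor. Near matches were not searched in any window. The printed TFB2M stretch holds one that differs from the NRF1 palindrome only in its first letter. It also holds GCGGAAG, which differs from the ETS core only in its first letter.

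**Figure D2:**
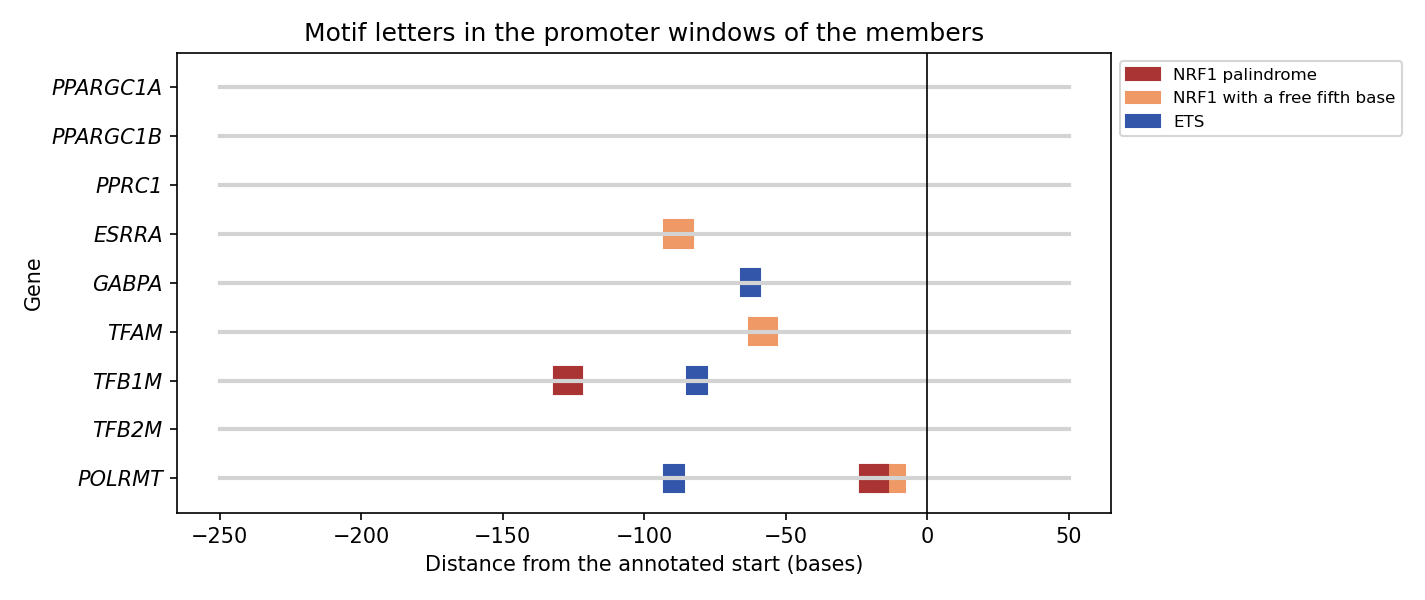
Positions of exact matches of motif letters (bases from the annotated start, negative before it) in the promoter windows of 9 genes, with 1 line per gene. Near matches are not drawn. Blocks stand in ESRRA, GABPA, TFAM, TFB1M and POLRMT, whereas the lines of PPARGC1A, PPARGC1B, PPRC1 and TFB2M are empty.

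Among the coactivators, PPARGC1B, which encodes PGC-1β, and PPRC1, which encodes the PGC-1-related coactivator PRC, rose after SIRT1 knockdown, and PPARGC1A was too low to be tested. PPARGC1A, the inducible member of the family in muscle, liver and brown fat, was at 0.17 and 0.20 FPKM in the Control and 0.21 and 0.66 FPKM in the siSIRT1 libraries. siSIRT1 replicate 2 stood above the other 3 libraries, and siSIRT1 replicate 1 was next to the Control values. With a canonical transcript of 6288 bases these values correspond to about 10 and 11 reads in the Control and about 11 and 37 reads in the siSIRT1 libraries. The siSIRT1 libraries disagreed with each other, and in the fit without a filter the log2 fold change was 0.26 (limma adjusted p = 0.34).

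PPARGC1B, whose product shares many nuclear receptor partners with PGC-1α, had 1.06 and 1.13 FPKM in the Control and 1.68 and 2.03 FPKM in the siSIRT1 libraries. Both siSIRT1 values exceeded both Control values, by a fold of 1.69 between the means (1.095 ± 0.0495 against 1.855 ± 0.247 FPKM, SD, n = 2). The log2 fold change was 0.44 with a 95% interval from 0.13 to 0.76 (limma adjusted p = 0.0357). With a pseudocount of 0.1 FPKM in place of 1 it was 0.70. The gene lay low, with only 1.94% of tested genes below it in the Control libraries and about 100 to 193 reads per library. The call was lost without Control replicate 1 (limma adjusted p = 0.161), without Control replicate 2 (0.12), without siSIRT1 replicate 2 (0.110), in the fit without a filter (0.051) and after 3 of the 4 rescalings, with adjusted p up to 0.061.

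PPRC1, a coactivator that is induced by serum in proliferating cells, had 18.93 and 20.46 FPKM in the Control and 23.85 and 23.34 FPKM in the siSIRT1 libraries. The groups did not overlap, and the rise was the smallest of the 4 that passed, a fold of 1.198 (log2 fold change 0.25, 95% interval 0.08 to 0.42, limma adjusted p = 0.0297). After each of the 4 rescalings of the libraries it no longer passed, with limma adjusted p from 0.0960 to 0.126. It also did not pass without Control replicate 1 (adjusted p = 0.258), without Control replicate 2 (0.0819) or without siSIRT1 replicate 1 (0.0698), nor in the fits without a filter (0.0557) and without the mean-variance trend (0.0652). PPRC1 made up 93.9% of the summed FPKM of the coactivator genes in both Control libraries, against 92.7% and 89.7% after knockdown. The share of PPARGC1B was 5.26% and 5.19% in the Control and 6.53% and 7.80% in the siSIRT1 libraries, without overlap. The exact permutation test of either share gave p = 0.333, two-sided, the smallest value that 2 against 2 libraries allow. Neither share was a planned comparison.

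Among the nuclear factors, ESRRA rose while NRF1 and GABPA did not pass the test. ESRRA encodes ERRα, an orphan nuclear receptor and a main DNA-binding partner of the PGC-1 family at genes of oxidative metabolism. Its level was 19.96 and 19.19 FPKM in the Control and 32.19 and 30.50 FPKM in the siSIRT1 libraries. Both siSIRT1 libraries were clearly above both Control libraries, and the fold between the means was 1.60 (19.6 ± 0.544 against 31.3 ± 1.195 FPKM, SD, n = 2). The log2 fold change was 0.65 (SE 0.07, 95% interval 0.49 to 0.81, limma adjusted p = 0.000268), and it ranked 554 of 12191 from the highest. These levels correspond to about 394 and 386 reads in the Control and 615 and 606 after knockdown. ESRRA passed in all 8 alternative fits on the 4 libraries, with limma adjusted p from 2.19e-06 to 0.00836. When a library was left out, its log2 fold change stayed between 0.61 and 0.69. Of its canonical transcript, 284 bases or 12.5% overlap exons of TRMT112 on the other strand, which was at 90.93 and 86.97 FPKM in the Control and 92.41 and 92.92 in the siSIRT1 libraries. Whether reads were counted by strand is not stated, and ESRRA has 2 annotated pseudogenes.

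NRF1, which activates many genes for respiratory chain subunits and for the mitochondrial transcription machinery, had 3.88 and 3.94 FPKM in the Control and 4.39 and 3.96 FPKM in the siSIRT1 libraries. The siSIRT1 values lay just above the Control values, and siSIRT1 replicate 2 was next to the higher Control library. The log2 fold change of 0.07 had a 95% interval from -0.19 to 0.34 (limma adjusted p = 0.654). GABPA was at 8.38 and 8.34 FPKM in the Control and 6.46 and 7.91 FPKM in the siSIRT1 libraries, the only tested gene of the 10 with a lower mean after knockdown. Its log2 fold change was -0.20 with a 95% interval from -0.46 to 0.06 (limma adjusted p = 0.207). siSIRT1 replicate 1 was the lower library, and without siSIRT1 replicate 2 the gene passed as lower, with a log2 fold change of -0.33 and adjusted p = 0.0476.

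Among the 4 genes of mitochondrial transcription, TFB2M was higher in siSIRT1 and TFAM, TFB1M and POLRMT did not pass the test. TFB2M, which opens the promoter DNA together with the polymerase at initiation, was at 6.65 and 4.95 FPKM in the Control and 9.15 and 8.10 FPKM in the siSIRT1 libraries. Both siSIRT1 values were above both Control values, although the Control libraries differed more from each other than the siSIRT1 libraries did. The fold between the means was 1.49 (5.80 ± 1.202 against 8.63 ± 0.742 FPKM, SD, n = 2), and the log2 fold change was 0.51 (SE 0.14, 95% interval 0.20 to 0.82, limma adjusted p = 0.0191). Between 77 and 136 reads per library stood behind these values. The call was lost without Control replicate 2, with a log2 fold change of 0.33 and adjusted p = 0.156, without siSIRT1 replicate 1 (0.0988) and in the fit without a filter (0.0915).

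TFB1M, the paralogous protein that methylates the small ribosomal RNA of mitochondria, had 7.13 and 6.39 FPKM in the Control and 6.96 and 6.64 FPKM in the siSIRT1 libraries. The siSIRT1 values lay inside the Control range, the only overlap among the 9 tested genes. The log2 fold change was 0.01 with a 95% interval from -0.23 to 0.25 (limma adjusted p = 0.958), and its sign turned under all 4 rescalings. Of the canonical transcript, 44.3% overlaps TIAM2 on the other strand, which was at 2.91 and 3.18 FPKM in the Control and 5.49 and 4.34 FPKM in the siSIRT1 libraries, and its part in the TFB1M values was not tested. The ratio of TFB2M to TFB1M within a library was 0.933 and 0.775 in the Control and 1.31 and 1.22 in the siSIRT1 libraries. The ratio was below 1 in both Control libraries and above 1 in both siSIRT1 libraries (exact permutation test, two-sided, p = 0.333, the smallest that is possible). It was not a planned comparison and restates the values of both genes.

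TFAM, the packaging and initiation factor of mitochondrial DNA, had 5.09 and 4.93 FPKM in the Control and 5.60 and 5.12 FPKM in the siSIRT1 libraries. The groups nearly touched, at 5.09 and 5.12 FPKM, and the log2 fold change of 0.08 had a 95% interval from -0.17 to 0.33 (limma adjusted p = 0.606). POLRMT, the RNA polymerase of the organelle, had 23.18 and 23.41 FPKM in the Control and 24.38 and 23.84 FPKM in the siSIRT1 libraries. Its log2 fold change of 0.05 lay in a 95% interval from -0.11 to 0.20 (limma adjusted p = 0.626) and turned negative under all 4 rescalings. TFAM has 2 annotated pseudogenes and POLRMT 1, as does GABPA, and how reads shared with them were counted is not stated. By annotation GABPA also overlaps ATP5PF on the other strand, without shared exon bases between the canonical transcripts. TFB1M and NRF1 each overlap a gene on the same strand, ENSG00000235381 and RNA5SP244, for which no levels were given.

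**Figure D3:**
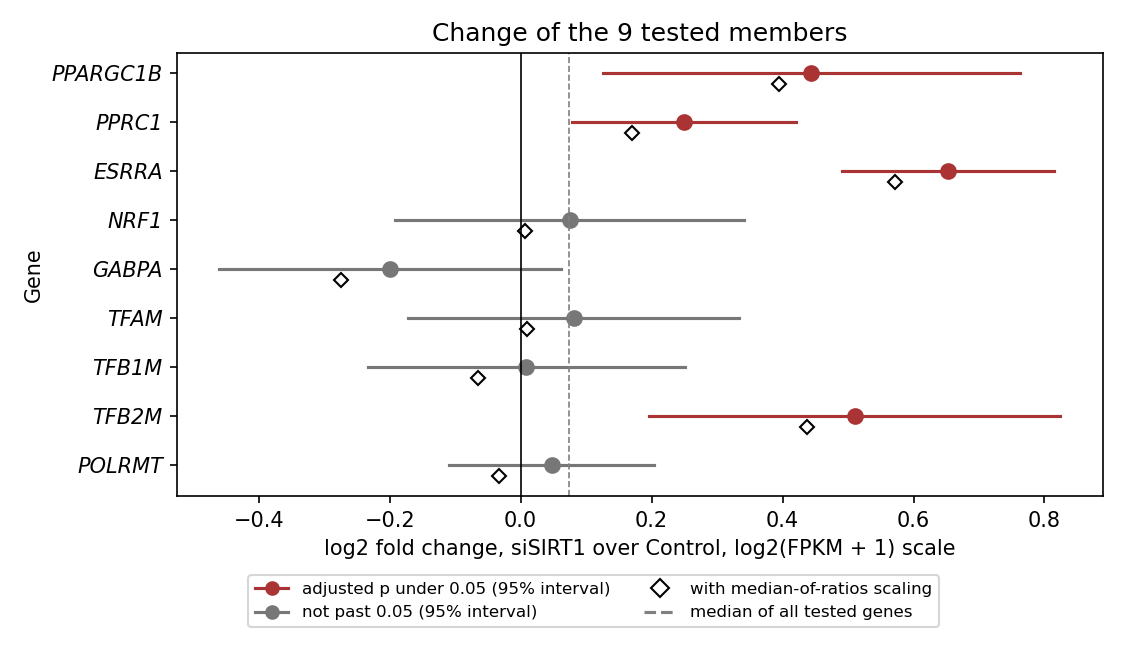
log2 fold change of siSIRT1 over Control on the log2(FPKM + 1) scale for the 9 tested genes, with 95% intervals from limma, red where the adjusted p is under 0.05, and open diamonds for the value after median-of-ratios scaling. ESRRA at 0.65, TFB2M at 0.51, PPARGC1B at 0.44 and PPRC1 at 0.25 are red, and the diamonds of TFB1M and POLRMT fall below 0.

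By FPKM, which is per length, the order of the Control means was POLRMT (23.3), PPRC1 (19.7), ESRRA (19.6), GABPA (8.36), TFB1M (6.76), TFB2M (5.80), TFAM (5.01), NRF1 (3.91), PPARGC1B (1.10) and PPARGC1A (0.185). The Control libraries of PPRC1 and ESRRA overlapped, as did those of TFB1M and TFB2M and those of TFB2M and TFAM, so these neighbours did not differ beyond their spread. In siSIRT1 the order began with ESRRA (31.3), followed by POLRMT (24.1) and PPRC1 (23.6), whose libraries overlapped. TFB2M (8.63) moved ahead of GABPA (7.19) and TFB1M (6.80), which overlapped each other, and TFAM (5.36), NRF1 (4.18), PPARGC1B (1.86) and PPARGC1A (0.435) kept their places. The ratio of ESRRA to POLRMT within a library was 0.861 and 0.820 in the Control and 1.32 and 1.28 in the siSIRT1 libraries. In both Control libraries ESRRA was the lower of the pair and in both siSIRT1 libraries the higher (exact permutation test, two-sided, p = 0.333, the smallest that is possible). This ratio was not a planned comparison and restates the ESRRA and POLRMT values given above.

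To place the 10 genes in their pathway, 8 lists with 129 further genes were read from the same fit. The lists were chosen with earlier results of these data known, so their shares are descriptions. Of these, 115 were found by symbol and 110 were tested, of which 32 were higher and 11 lower in siSIRT1. The 43 called are 39.1% of those tested, close to the 37.1% of all tested genes, with 29.1% higher beside 24.0% and 10% lower beside 13.1%. After median-of-ratios scaling 21 were higher and 13 lower, beside 2043 higher and 2030 lower over all tested genes. Leaving out a Control library lowered the calls over all genes as well as in the lists. Without Control replicate 1 only 20 of these genes passed in either direction, and without Control replicate 2 only 18. Of the genes named below, ACADM, FBXW7, HSPA9, LONP1, MFN2, PPARA, SSBP1 and TOP1MT did not pass in the fit without a filter (limma adjusted p from 0.0577 to 0.0909). Without the mean-variance trend, HCFC1, HSPA9, LONP1, MFN2, SSBP1 and TOP1MT did not pass (0.0628 to 0.124). The mitochondrially encoded mRNAs, the products of POLRMT, TFAM and TFB2M, were not analysed here. All 13 were looked for only by symbols with the prefix MT-, and none was found. Other names and gene identifiers were not searched, so an entry under another name is not excluded.

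The nuclear partners of the coactivators comprised 16 tested receptors, DNA-binding factors and cofactors. Of these, 2 were higher and 2 lower (0 and 3 after median-of-ratios scaling), with a median log2 fold change of -0.09. The 25.0% called are below the 37.1% of all tested genes, and without Control replicate 1 none passed (1 without Control replicate 2). PPARG, the adipogenic receptor through which PGC-1α was first isolated, fell from 24.6 ± 1.46 to 19.9 ± 0.834 FPKM (log2 fold change -0.29, limma adjusted p = 0.0177). It did not pass without Control replicate 1 (0.185) or without siSIRT1 replicate 2 (0.0538). PPARA, a receptor for fatty acids named here after its values were seen, was the other gene that fell (-0.38, adjusted p = 0.0408), and of the fits that left out a library it passed only without siSIRT1 replicate 2, with 0.11 and 0.226 without a Control library and 0.123 without siSIRT1 replicate 1. PERM1, also named after its values were seen, did not pass on the deposited scale (log2 fold change -0.46, limma adjusted p = 0.0584). It passed as lower after 3 of the 4 rescalings (0.0432 by the median of ratios). RXRA, the common heterodimer partner of nuclear receptors, and HCFC1, a cofactor bound by the coactivators, were higher. Their log2 fold changes were 0.29 and 0.20 (limma adjusted p = 0.0287 and 0.0375), and neither passed after any of the 4 rescalings. Leaving out Control replicate 1 or Control replicate 2 also ended both calls, with log2 fold changes of 0.31 and 0.27 for RXRA and 0.17 and 0.23 for HCFC1. RXRA was lost without siSIRT1 replicate 2 as well (0.25), and HCFC1 without siSIRT1 replicate 1 (0.20).

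Of the 14 enzymes and corepressors that act on PGC-1α, none was higher and 3 were lower, 21.4% beside the 13.1% of all tested genes called lower, with a median log2 fold change of 0.01. The number lower was 2 without either Control library or siSIRT1 replicate 1 and 4 without siSIRT1 replicate 2. NCOR1, a nuclear receptor corepressor, was at 28.08 and 29.04 FPKM in the Control and 18.26 and 21.43 FPKM in the siSIRT1 libraries (log2 fold change -0.51, limma adjusted p = 0.00242). NRIP1, known as RIP140 and a repressor of oxidative genes through ERRα, was at 2.58 and 2.85 FPKM in the Control and 0.81 and 1.47 FPKM in the siSIRT1 libraries (log2 fold change -0.81, adjusted p = 0.0063). Both genes were lower in both siSIRT1 libraries and passed in all 4 fits that left out a library. FBXW7, the substrate receptor of a ubiquitin ligase, fell by 0.37 on the log2 scale (adjusted p = 0.0437) and passed only without siSIRT1 replicate 2 among those 4 fits (0.14 and 0.228 without a Control library, 0.113 without siSIRT1 replicate 1).

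Of the 20 other genes for transcription, replication and packaging of mitochondrial DNA, 4 were higher and 2 lower, 30.0% called beside 37.1% of all tested genes, with a median of 0.14. Only 3 passed without Control replicate 1, 2 without Control replicate 2 and 3 without the trend. POLG, the catalytic subunit of the mitochondrial DNA polymerase, rose from 25.78 and 26.44 to 36.43 and 35.19 FPKM (log2 fold change 0.44, limma adjusted p = 0.00122). LIG3, the DNA ligase of the organelle, fell from 10.58 and 11.31 to 6.05 and 7.42 FPKM (log2 fold change -0.63, adjusted p = 0.00307). For both genes the groups were well apart, and both passed in all 4 fits that left out a library. MGME1, a nuclease that trims replication ends, rose by 0.35 (adjusted p = 0.0124) but did not pass without Control replicate 1 (0.072) or Control replicate 2 (0.0961). The other genes that passed are named after their values were seen: SSBP1, the single-strand binding protein, and TOP1MT, a topoisomerase, were higher (0.33 and 0.26, adjusted p = 0.0182 and 0.0494), and LONP1, a matrix protease, was lower (-0.20, adjusted p = 0.0427). SSBP1 did not pass without Control replicate 2 (0.0882) or siSIRT1 replicate 1 (0.0502), nor after 2 of the 4 rescalings (0.0794 by the median of ratios), and TOP1MT passed after none of the 4 (0.147 by the median of ratios). Neither TOP1MT nor LONP1 passed in any fit that left out a library, with adjusted p from 0.0648 to 0.375. The transcription elongation factor gene TEFM, named here after its values were seen as the direct partner of POLRMT, had a log2 fold change of 0.30 (adjusted p = 0.13).

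Of the 20 genes for mitochondrial RNA processing and stability, 7 were higher and none lower. The 35.0% higher stand beside 24.0% of all tested genes called higher and 37.1% called in either direction. The number higher in the list was 4 after median-of-ratios scaling, where 2043 of all tested genes were higher, beside 2930 on the deposited scale. It also fell without either Control library, as did the calls over all genes. MRM2, a methyltransferase of the large mitochondrial ribosomal RNA, rose from 13.1 ± 0.106 to 18.5 ± 1.04 FPKM (log2 fold change 0.47, limma adjusted p = 0.0026). FASTKD5, needed to process unconventional transcript ends, rose from 7.36 ± 0.445 to 11.0 ± 0.212 FPKM (0.53, adjusted p = 0.00321). HSD17B10, a subunit of mitochondrial RNase P, rose from 94.6 ± 2.45 to 119 ± 2.57 FPKM (0.32, adjusted p = 0.00286), and its adjusted p was 0.0598 without Control replicate 2. The other 2 passed in all 4 fits that left out a library.

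The list of textbook targets of PGC-1, ERRα, NRF1 and GABP held 16 tested genes, of which 12 were higher and 3 lower in siSIRT1 (11 and 3 after median-of-ratios scaling), with a median log2 fold change of 0.36. The share called higher was 75.0%, beside 24.0% of all tested genes. The list was chosen with earlier results of these data known. It held highly expressed genes such as ATP5F1B, above 99.0% of tested genes in the Control. All tested genes are thus not a matched comparison. Without a Control library, fewer genes passed in this list as over all tested genes. Without Control replicate 1 or Control replicate 2, 7 of 15 were higher and 2 lower. CYCS, which encodes cytochrome c and is a classical target of NRF1, was at 19.96 and 19.70 FPKM in the Control and 35.96 and 33.89 FPKM in the siSIRT1 libraries (log2 fold change 0.79, limma adjusted p = 9.9e-05). UCP2, a carrier of the inner membrane, was at 39.28 and 39.49 FPKM in the Control and 21.01 and 17.89 FPKM in the siSIRT1 libraries (log2 fold change -0.99, adjusted p = 8.4e-05). PDK4, the kinase that inhibits pyruvate dehydrogenase, was at 1.71 and 1.91 FPKM in the Control and 0.36 and 0.41 FPKM in the siSIRT1 libraries (log2 fold change -1.02, adjusted p = 0.000833). It reached the filter only through the Control group, so its difference is a description, and without it the list had 12 higher and 2 lower of 15 with a median of 0.37. The third gene that fell, ACADM of fatty acid oxidation, is named after its values were seen and had a log2 fold change of -0.51 (adjusted p = 0.00866). G6PC1 was the 1 tested gene of the list that did not pass (adjusted p = 0.566). CYCS, UCP2 and ACADM passed in all 4 fits that left out a library, although ACADM did not without the filter (0.0621), while PDK4 fell under the filter when a Control library was left out. CYCS has many processed pseudogenes, and how shared reads were counted is not stated.

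Of the 14 genes of mitochondrial protein import, the route by which TFAM and the other nuclear-encoded factors enter, 6 were higher and 1 lower, with a median of 0.21. The share higher was 42.9% beside 24.0% of all tested genes. It was 28.6% after median-of-ratios scaling, without a filter and without the trend. Over all genes, 2043 were called higher after median-of-ratios scaling, beside 2930 in the fit described, and 2 genes of the list were then lower. Calls over all genes in either direction were 3531 without a filter and 3995 without the trend, beside 4521. The share of the list called higher was lower still without either Control library, where fewer of all genes passed too. TIMM23, the channel of the inner membrane, rose from 47.3 ± 0.580 to 64.1 ± 3.01 FPKM (log2 fold change 0.43, limma adjusted p = 0.00111), and a near-identical copy of the gene makes its count uncertain. TOMM22, a receptor of the outer membrane, rose by 0.35 (adjusted p = 0.00313), and TOMM40, its channel, by 0.29 (0.00612). TIMM23 and TOMM22 passed in all 4 fits that left out a library, and TOMM40 did not without Control replicate 1 (0.0607) or Control replicate 2 (0.072). HSPA9, the motor chaperone of the matrix, was the 1 gene that fell, by 0.19 (adjusted p = 0.0343), and is named after its values were seen. Without Control replicate 1, Control replicate 2 or siSIRT1 replicate 2 it did not pass (0.182, 0.331 and 0.0537). Of 10 genes of mitochondrial fusion and fission, only MFN2 passed (10% beside 37.1%), with a log2 fold change of 0.23 (adjusted p = 0.0306), and it was lost under all 4 rescalings and without either Control library (0.164 and 0.173) or siSIRT1 replicate 2 (0.0763).

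**Figure D4:**
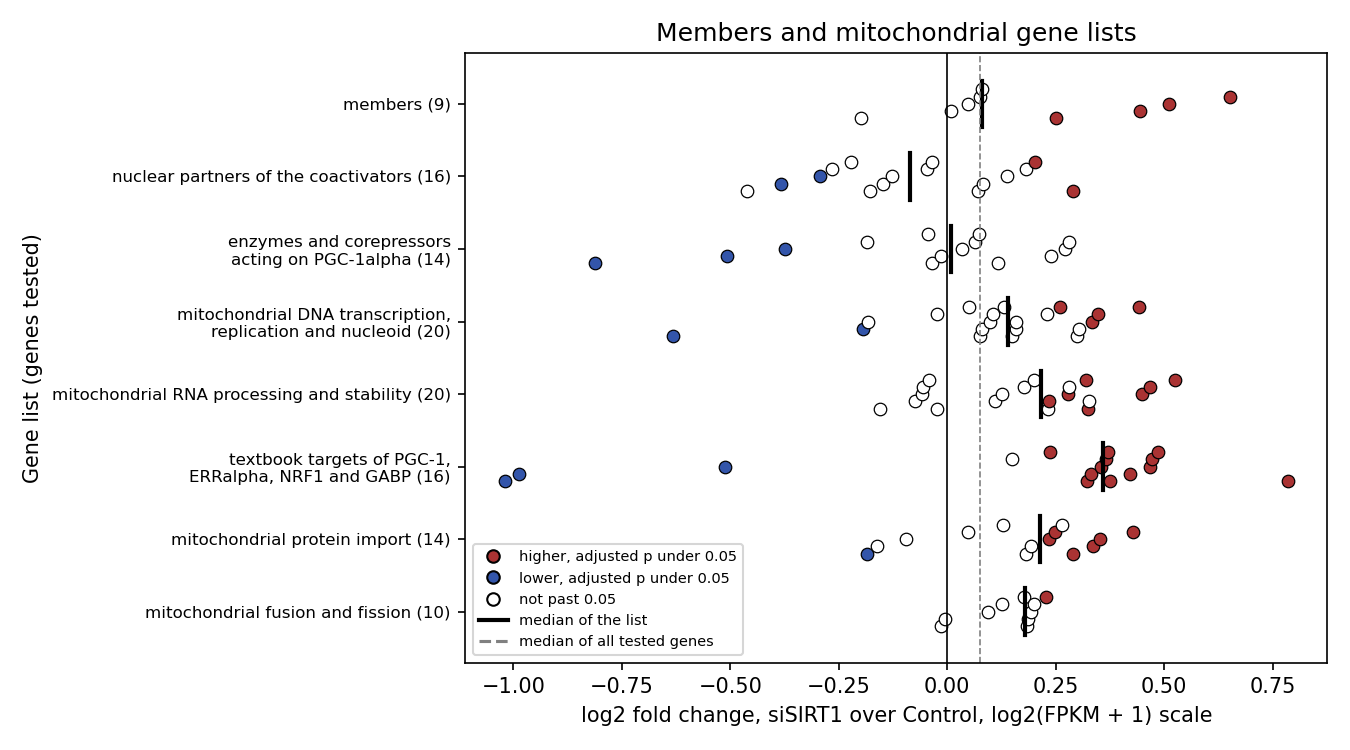
log2 fold change of siSIRT1 over Control (log2(FPKM + 1) scale) for every tested gene of the 10 members and of 7 lists, 1 dot per gene, red for higher and blue for lower at an adjusted p under 0.05, with a black bar at the median of each list and a dashed line at the median of all tested genes (0.07). The bar of the members is at 0.08, beside the dashed line, and that of the textbook targets at 0.36, with UCP2 far to the left beside PDK4, the gene that reached the filter only through the Control group.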

How the data were processed

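Total RNA from PANC-1 cells had been sequenced in 4 libraries, 2 Control and 2 siSIRT1. The tables deposited by the authors, 1 for each library, hold the FPKM of 16878 genes, rounded to 2 decimals, and 16846 of these gene IDs matched RefSeq names. The submitters' processing notes name HISAT, Bowtie2, RSEM and ChIPseeker without versions or roles. The genome build, the annotation and the use of strand are not given in the sources used here, and a test for the siSIRT1 RNA-seq is not described.

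Groups were taken from the treatment labels. The 10 genes and the pathway lists were chosen with earlier results of these data known. All values were analysed as log2(FPKM + 1), for genes whose mean reached 1 FPKM, by lmFit and trended eBayes in limma 3.58.1 (R 4.3.3), two-sided, with Benjamini-Hochberg adjustment over the 12191 genes tested. No set test was made. From each list, up to 3 genes with the smallest adjusted p among those past 0.05 were named. The fit was also run on simulated libraries in which every gene had the same spread and few genes changed. That setting is simpler than these data, so it does not measure the error of the fit here. Read depth was estimated from the steps of low FPKM values over 82 to 98 single-exon genes, with their RefSeq gene lengths less 80 bases. Read numbers per gene then used canonical transcript lengths less 80 bases, so they are approximate and cover counting error only. With 2 libraries per group, exact permutation tests of single values cannot go below p = 0.333. The alternatives were a pseudocount of 0.1 FPKM, no filter, 4 rescalings (median of ratios, upper quartile, quantile and equal FPKM sums), no trend, a replicate block, the fold and p thresholds of the study, and leaving out each library. Promoter windows were those of RefSeq on GRCh38.p14, pseudogenes and exon overlaps those of GENCODE.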

Additional observations from a re-analysis of the deposited data

How the results depend on the processing

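Across all genes, 4521 passed in the fit described, 2207 by the fold and p thresholds of the study, and 2710 to 4582 when a library was left out, the lowest numbers coming without Control replicate 2 (2710) and Control replicate 1 (2808). Of the 10 genes, 4 passed in that fit, 2 after median-of-ratios scaling, upper-quartile scaling or scaling to equal FPKM sums, and 1 without the filter or by the thresholds of the study. Leaving out a library gave 1 to 4, with 2 without Control replicate 1 or siSIRT1 replicate 1 and 1 without Control replicate 2. The lists held 43 called genes, 19 by the thresholds of the study and 18 to 41 when a library was left out. The log2 fold change of TFB1M turned to -0.064 after median-of-ratios scaling, -0.059 after upper-quartile scaling, -0.033 after quantile normalization and -0.045 with equal FPKM sums, and ranged from -0.060 to 0.078 when a library was left out, being also negative without siSIRT1 replicate 1 (-0.021). That of POLRMT turned to -0.033, -0.027, -0.029 and -0.012 under the same 4 scalings, and neither gene passed in any fit. Of 120 alternative values for the 9 tested genes and SIRT1, 90 kept direction and side of the threshold, 19 no longer passed, 1 newly passed and 10 changed sign, and the cause was not tested.

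The replicate numbers in the titles were used as a block in an alternative fit, which called 5393 genes and the same number of the 10 genes, 4. Deviations of same-numbered libraries correlated at 0.123 across 12191 genes in these 2 pairs, so the numbers are not taken to pair the libraries.

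With 2 libraries per group the 95% intervals of the 5 tested genes that did not pass still allow differences of up to 0.46 on the log2 scale. PPARGC1A, at about 10 to 37 reads, was under the filter, and its siSIRT1 libraries differed from each other.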

Other observations

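The MTRNR2L genes, nuclear copies nearly identical to the mitochondrial 16S ribosomal RNA, were looked at after their values were seen, since reads from them and from the RNA made by POLRMT cannot be told apart. Their summed FPKM was 24948 and 25160 in the Control and 22894 and 20502 in the siSIRT1 libraries. That is 6.20% and 6.34% of the summed FPKM of the Control and 5.37% and 5.02% of that of the siSIRT1 libraries, without overlap (exact permutation test, two-sided, p = 0.333, the smallest that 2 against 2 libraries allow). Of the 10 genes 9 were tested, and 1 was lower and none higher, 11.1% beside the 13.1% of all tested genes called lower. In 5 of the 9 the groups overlapped, with log2 fold changes from -0.07 to 0.01, and in the other 4 they were from -0.24 to -0.21. MTRNR2L2, with the highest level at 11116 and 10943 FPKM in the Control and 9925 and 8769 FPKM in the siSIRT1 libraries, did not pass the test (log2 fold change -0.24, limma adjusted p = 0.154). MTRNR2L6, at 351.98 and 393.14 FPKM in the Control and 324.73 and 303.17 FPKM in the siSIRT1 libraries, was the gene that passed as lower (log2 fold change -0.24, limma adjusted p = 0.0292).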
